A study of Mus musculus with 16 samples.

Results

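The 10 genes described here encode the core of MHC class I antigen presentation. They are B2m, H2-K1, H2-D1, Tap1, Tap2, Tapbp, Psmb8, Psmb9, Psmb10 and Nlrc5. They were taken by their symbols as a fixed set, with earlier results of these data known, and all 10 were found among the 55359 gene identifiers of each count file and passed the filter on low counts in both organs. Whole ovaries and kidneys of wild-type female CBAF1 mice aged 21 days were sequenced. The 4 groups, of 4 libraries each, were ovary with PT-2385, ovary with vehicle, kidney with PT-2385 and kidney with vehicle. PT-2385, a small molecule that keeps the hypoxia-inducible factor HIF-2α (gene Epas1) from binding its partner ARNT, was injected at 7.5 mg/kg; the vehicle was 5% DMSO in saline. Injections into the peritoneum were repeated every 12 h for 4 days. All groups, vehicle included, also received 5 IU PMSG, a gonadotrophin that makes follicles grow, for 48 h and then 5 IU hCG, which triggers ovulation, with organs taken 13 h after hCG. Whether each library is a different animal is not in the labels, and p-values thus measure the spread between these samples only.

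MHC class I molecules show peptides from inside the cell to CD8+ T cells. Immunoproteasomes cut proteins into peptides, the TAP transporter carries the peptides into the endoplasmic reticulum, tapasin helps load them onto a heavy chain, and β2-microglobulin completes the complex that goes to the cell surface. Nearly every nucleated cell carries some of these molecules, and interferons raise the expression of the whole set, in part through the transactivator NLRC5.

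In ovary, the transcripts with the largest differences were Nlrc5 and Tap1. Nlrc5 stood at 0.610 of the vehicle level with PT-2385 (95% interval 0.489 to 0.761) and Tap1 at 0.737 (0.629 to 0.863), and in both the 4 PT-2385 libraries lay below all 4 vehicle libraries. Neither passed the adjusted threshold of 0.05 (edgeR quasi-likelihood test, Benjamini-Hochberg over all tested genes), and 0 of the 10 genes did. The background was low as well: 9 of 18125 tested genes passed in ovary, or 0.0497%, with 8 of them lower (0.0441%). The heavy chains H2-K1 and H2-D1 had fold changes of 1.02 and 0.966 in ovary. In kidney 0 of 10 genes passed, where 982 of 17763 genes (5.53%) did, 657 of them lower (3.70%), and the 2 lowest fold changes were those of Psmb9 (0.784) and Nlrc5 (0.790). DESeq2 called 2 of the 10 in ovary (Nlrc5 and Tap1), where it called 324 of the 14956 genes it gave an adjusted p (2.17%), and 0 of the 10 in kidney, where it called 1455 of 13286 (11.0%).

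Assigned read pairs ran from 12.7 to 43.3 M per library (1 M is 1e6), with both extremes in kidney PT-2385. Levels are counts per 1e6 counts (CPM) after TMM scaling within the organ, and CPM per kilobase of exon where genes are compared with each other. The ovary libraries held Foxl2 and Zp3, which had 0 counts in every kidney library. Ovary vehicle replicate 1 also held kidney transcripts: its summed kidney identity markers came to 67.2 CPM, against 22.3 to 24.4 CPM in the other vehicle ovaries and 32.6 to 34.2 CPM in the PT-2385 ovaries. In the PT-2385 ovaries nearly all of this sum was Aqp2, at 33.0 ± 0.804 CPM against 21.0 ± 3.64 CPM with vehicle (SD, n = 4 each). Each of the other kidney markers had fewer counts over the PT-2385 ovaries than over the vehicle ovaries, such as Kap (14 against 1051). Ovary vehicle replicate 3, whose file carries the number 5, was low in nuclear noncoding RNAs (summed 1366 CPM, against 2927 to 3691 CPM in the other vehicle ovaries and 2341 to 2747 CPM in the PT-2385 ovaries). The file of kidney PT-2385 replicate 3 bears another flow-cell code than the rest. Fewer cells of a type and less RNA per cell cannot be told apart in such bulk samples.

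Across the set, per-length levels spanned a wide range in a similar order in both organs. In ovary with PT-2385 the mean CPM per kilobase was 272 for B2m, 96.8 for H2-K1, 38.2 for H2-D1, 27.1 for Tapbp, 15.8 for Psmb10, 8.44 for Tap2, 5.73 for Tap1, 4.46 for Psmb8, 2.58 for Psmb9 and 0.428 for Nlrc5. In ovary with vehicle the same genes stood at 311, 94.5, 39.6, 30.6, 16.3, 8.74, 7.77, 5.69, 3.18 and 0.705 CPM per kilobase. Tap1 and Psmb8 overlapped between libraries in both ovary groups, and Tap2 and Tap1 overlapped with vehicle only. In kidney with PT-2385 B2m led at 291 CPM per kilobase, H2-K1 and H2-D1 followed at 76.7 and 45.9, and Nlrc5 was lowest at 0.460; with vehicle these were 277, 76.8, 45.6 and 0.588. Tap1, Psmb8 and Psmb9 lay between 2.80 and 3.71 CPM per kilobase in kidney with PT-2385 and between 3.16 and 4.13 with vehicle, with libraries that overlapped. RNA was isolated with a column kit from ovary and with Trizol from kidney, so no test compared levels between organs.

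**Figure D1:**
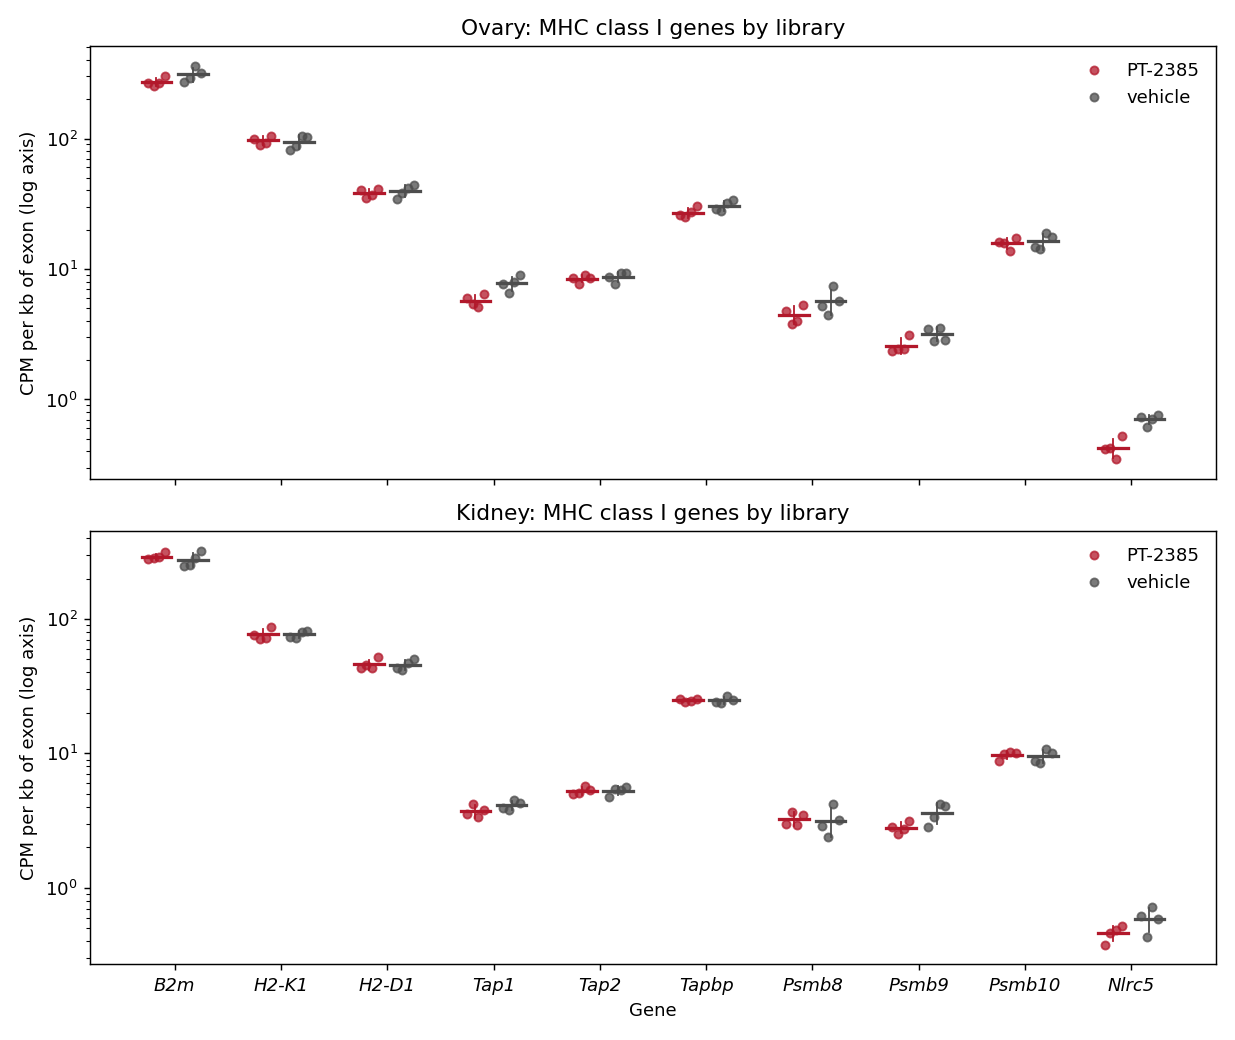
CPM per kilobase of exon (log axis) of the 10 genes in each library of ovary and kidney. Points are libraries, horizontal bars means and vertical lines SD of 4 libraries; Nlrc5 and Tap1 in ovary are the genes whose groups do not overlap, at 0.428 and 5.73 with PT-2385 against 0.705 and 7.77 with vehicle.

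The molecules at the cell surface came first. B2m, the invariant light chain (chromosome 2, 121978167 to 121983564, GRCm39), measured 230, 217, 229 and 259 CPM in ovaries with PT-2385 (replicates 1 to 4), against 235, 251, 311 and 273 CPM with vehicle. Of the PT-2385 libraries 3 lay below the lowest vehicle library and the fourth lay inside the vehicle range. The log2 fold change was -0.20 (SE 0.0919, adjusted p = 0.385). In kidney B2m measured 242, 244, 247 and 269 CPM with PT-2385, against 213, 218, 246 and 276 CPM with vehicle, so that the vehicle libraries spread around the treated ones (log2 fold change 0.07, adjusted p = 0.608).

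H2-K1, a classical heavy chain that holds the peptide (chromosome 17, 34214991 to 34219321), measured 166, 147, 153 and 174 CPM in ovaries with PT-2385, against 136, 146, 174 and 170 CPM with vehicle. The groups covered nearly the same range, with a log2 fold change of 0.04 (95% interval -0.16 to 0.23). In kidney H2-K1 averaged 127 ± 12.7 CPM with PT-2385 and 127 ± 8.07 CPM with vehicle (SD, n = 4 each), a log2 fold change of -0.00025 (-0.14 to 0.14). H2-D1, the other classical heavy chain (chromosome 17, 35481706 to 35486475), measured 91.2, 78.5, 82.6 and 92.7 CPM in ovaries with PT-2385, against 77.8, 85.4, 95 and 98.9 CPM with vehicle. Its interval in ovary ran from -0.23 to 0.13 around a log2 fold change of -0.05, and in kidney from -0.14 to 0.15 around 0.0074. The ratio of H2-K1 to H2-D1 per length was 2.53 ± 0.0348 in ovaries with PT-2385 and 2.39 ± 0.0753 with vehicle, and 1.67 ± 0.0825 in kidneys with PT-2385 and 1.69 ± 0.0446 with vehicle (SD, n = 4 each), with overlap in both organs.

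Class I heavy chain genes resemble each other closely and differ between mouse strains, so reads may have been shared out between copies or lost where they fit several. When the counts of 17 class I heavy chains were summed, H2-K1 and H2-D1 held between 56.7% and 60.5% of the sum in ovaries with PT-2385 and between 54.7% and 59.2% with vehicle. In kidney they held between 56.8% and 59.4% with PT-2385 and between 51.9% and 56.5% with vehicle. The sum as 1 gene had a log2 fold change of -0.04 in ovary and -0.09 in kidney, neither past the threshold (adjusted p = 0.896 and 0.336).

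The promoters of these 3 surface genes are shown because class I genes are known to be switched on through short promoter elements, whose letters were searched for. The windows cover 250 bases before and 50 bases after the start site, from RefSeq on GRCm38.p6, 5′ to 3′ on the gene's strand. RefSeq windows were found for 8 of the 10 genes, not for Tap2 and Nlrc5; of the 2 windows of H2-K1 the first is shown. Capitals mark matches, searched on both strands, to 4 motifs. The first is TTTCNNTT, the core of interferon-stimulated response elements. The next are TGACG, a CRE-like element bound by factors of the CREB family, and CCAAT, the Y box bound by NF-Y. The last is GGGANTCCC, the centre of a κB site. No match of 1 motif shared bases with a match of another of these. B2m lies at chr2:122147437-122147736 (+ strand), H2-K1 at chr17:34000298-34000597 (- strand) and H2-D1 at chr17:35262844-35263143 (+ strand).
B2m: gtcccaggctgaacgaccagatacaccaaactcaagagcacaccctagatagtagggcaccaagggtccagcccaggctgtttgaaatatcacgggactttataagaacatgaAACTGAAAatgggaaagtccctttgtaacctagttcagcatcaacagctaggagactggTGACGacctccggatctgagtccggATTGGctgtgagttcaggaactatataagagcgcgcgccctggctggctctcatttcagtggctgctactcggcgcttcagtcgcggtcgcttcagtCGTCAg
H2-K1: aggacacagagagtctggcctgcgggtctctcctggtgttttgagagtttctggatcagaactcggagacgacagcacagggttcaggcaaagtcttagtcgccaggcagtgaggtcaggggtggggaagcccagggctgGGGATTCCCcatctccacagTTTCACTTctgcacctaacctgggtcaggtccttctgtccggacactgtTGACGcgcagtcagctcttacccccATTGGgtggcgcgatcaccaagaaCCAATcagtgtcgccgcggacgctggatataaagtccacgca
H2-D1: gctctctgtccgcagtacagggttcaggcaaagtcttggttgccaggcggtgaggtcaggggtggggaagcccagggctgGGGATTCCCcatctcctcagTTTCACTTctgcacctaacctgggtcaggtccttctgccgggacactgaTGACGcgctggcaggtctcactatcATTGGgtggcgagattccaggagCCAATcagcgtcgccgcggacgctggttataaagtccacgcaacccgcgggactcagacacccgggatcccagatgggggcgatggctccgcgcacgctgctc

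Each of the 3 windows held a match to TTTCNNTT, to TGACG and to CCAAT, in that order towards the start site. In H2-K1 they began at positions -90, -41 and -16 from the start site, in H2-D1 at -150, -101 and -76, and in B2m at -137, -78 and -53. The κB letters stood in H2-K1 (-110) and H2-D1 (-170) and in 0.767% of all 32851 promoter windows of that length. These letters were shortened by 1 base after their matches had been seen, so the share cannot test the match. The bases around the match are nearly the same in H2-K1 and H2-D1, which are thus not separate finds. TTTCNNTT was found in 23.9%, TGACG in 20.8% and CCAAT in 37.4% of all windows. The sequences are those of the reference strain, and a match is not a measured binding site. The letters of the hypoxia response core ACGTG (19.6% of windows, both strands) were found in none of these 3, and GCGTG (32.4%) in H2-K1 and H2-D1.

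The peptide transporter was next. Tap1, a subunit of TAP (chromosome 17, 34406527 to 34416199), measured 17.7, 16, 15 and 19.0 CPM in ovaries with PT-2385, against 22.5, 19.3, 23.6 and 26.4 CPM with vehicle. All 4 treated libraries were lower than the lowest vehicle library, although by only 19.0 against 19.3 CPM at the closest. The log2 fold change was -0.44 (SE 0.105, 95% interval -0.67 to -0.21, adjusted p = 0.134). In kidney Tap1 measured 10.4, 12.5, 9.85 and 11.1 CPM with PT-2385, against 11.5, 11.3, 13.4 and 12.6 CPM with vehicle, and the groups overlapped (log2 fold change -0.17, adjusted p = 0.271).

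Tap2, the partner subunit (chromosome 17, 34422501 to 34435295), measured 29.4, 26.6, 30.7 and 29.5 CPM in ovaries with PT-2385, against 29.9, 26.5, 31.9 and 32.0 CPM with vehicle. Its log2 fold change was -0.05 (95% interval -0.22 to 0.12) in ovary and 0.0065 (-0.15 to 0.16) in kidney. The ratio of Tap1 to Tap2 per length was 0.700, 0.703, 0.568 and 0.750 in ovaries with PT-2385, against 0.880, 0.849, 0.861 and 0.958 with vehicle. These groups did not overlap. In kidney the ratio was 0.707 ± 0.103 with PT-2385 and 0.784 ± 0.0672 with vehicle (SD, n = 4 each), with overlap. Of Tap1's exon bases 7.18% were shared with Psmb9 on the opposite strand, and 15.8% of Tap2's with 2 gene models on the opposite strand; the counting used no strand.

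Tap1 and Psmb9 stand head to head, with start sites 226 bases apart in RefSeq, and their promoter windows share 275 bases. The Tap1 window (chr17:34187306-34187605, + strand, GRCm38.p6) is shown because it covers the space between both genes; capitals mark CCAAT at -222 and TGACG at -86.
Tap1: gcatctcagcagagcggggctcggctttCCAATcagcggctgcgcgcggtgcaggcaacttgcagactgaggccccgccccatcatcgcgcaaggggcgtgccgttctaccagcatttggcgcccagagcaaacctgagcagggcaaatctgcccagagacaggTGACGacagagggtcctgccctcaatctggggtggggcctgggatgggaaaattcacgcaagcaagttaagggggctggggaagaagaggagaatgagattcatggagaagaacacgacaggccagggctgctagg
No match to TTTCNNTT, to the κB motif or to TTCNNNGAA (a STAT site, found in 8.3% of windows) was in this window. GCGTG was found on the forward strand at -154 and on the reverse strand at -32. In ovary the 2 genes had log2 fold changes of -0.44 (Tap1) and -0.29 (Psmb9), and in kidney of -0.17 (Tap1) and -0.35 (Psmb9). Among the remaining windows, TTCNNNGAA was found in that of Psmb8 and ACGTG in that of Psmb10.

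Tapbp, which encodes tapasin, the bridge between TAP and the empty heavy chain (chromosome 17, 34138306 to 34148266), measured 74.9, 72.5, 79.3 and 87.7 CPM in ovaries with PT-2385, against 83.7, 81.1, 92.3 and 97.8 CPM with vehicle. The treated libraries 1 to 3 lay below the vehicle range and the fourth inside it. The log2 fold change was -0.17 (SE 0.0788, adjusted p = 0.371). In kidney it averaged 71.9 ± 1.34 CPM with PT-2385 and 72.1 ± 4.25 CPM with vehicle (SD, n = 4 each), a log2 fold change of -0.0021 (95% interval -0.11 to 0.10). Gm19412 on the opposite strand shared 23.5% of Tapbp's exon bases.

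The immunoproteasome subunits take the place of constitutive ones: Psmb8 that of Psmb5, Psmb9 that of Psmb6 and Psmb10 that of Psmb7. Psmb8 (chromosome 17, 34416764 to 34420428) measured 7.73, 6.13, 6.54 and 8.65 CPM in ovaries with PT-2385, against 8.54, 7.24, 12.1 and 9.22 CPM with vehicle. Vehicle replicate 3 was the highest of the 8 and the groups overlapped (log2 fold change -0.35, SE 0.161, adjusted p = 0.378). In kidney Psmb8 measured 4.84, 5.97, 4.74 and 5.68 CPM with PT-2385, against 4.72, 3.87, 6.82 and 5.16 CPM with vehicle, and the treated values lay inside the vehicle range (log2 fold change 0.03, 95% interval -0.29 to 0.36).

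Psmb9 (chromosome 17, 34400961 to 34406738) measured 3.19, 3.32, 3.27 and 4.20 CPM in ovaries with PT-2385, against 4.72, 3.78, 4.79 and 3.90 CPM with vehicle. Treated replicate 4 stood above 2 of the vehicle libraries and the other treated ones below all of them (log2 fold change -0.29, SE 0.150, adjusted p = 0.430). In kidney Psmb9 measured 3.80, 3.38, 3.71 and 4.26 CPM with PT-2385, against 3.81, 4.58, 5.64 and 5.50 CPM with vehicle. Treated replicates 1 to 3 lay below the vehicle range and treated replicate 4 inside it (log2 fold change -0.35, SE 0.139, adjusted p = 0.141). The ratio of Psmb9 to Psmb6 per length in kidney was 0.0200, 0.0167, 0.0198 and 0.0222 with PT-2385, against 0.0232, 0.0272, 0.0293 and 0.0305 with vehicle, without overlap. Psmb6 itself had a log2 fold change of 0.13 in kidney (adjusted p = 0.164). In ovary the ratio was 0.0164 ± 0.00241 with PT-2385 and 0.0212 ± 0.00221 with vehicle (SD, n = 4 each), with overlap. Tap1 on the opposite strand shared 15.7% of Psmb9's exon bases.

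Psmb10, whose gene lies on chromosome 8 (106662371 to 106665076), averaged 20.7 ± 1.96 CPM in ovaries with PT-2385 and 21.4 ± 2.90 CPM with vehicle (SD, n = 4 each). Its log2 fold change was -0.05 (95% interval -0.28 to 0.18) in ovary and 0.04 (-0.15 to 0.22) in kidney. The ratio of Psmb8 to Psmb5 was 0.0742 ± 0.00856 in ovaries with PT-2385 and 0.100 ± 0.0182 with vehicle, and that of Psmb10 to Psmb7 was 0.295 ± 0.0402 with PT-2385 and 0.321 ± 0.0358 with vehicle (SD, n = 4 each); both overlapped. The constitutive subunits Psmb5, Psmb6 and Psmb7 had log2 fold changes between 0.08 and 0.09 in ovary, and 0 of the 3 passed the test in either organ (0 in ovary and 1 in kidney, higher, at an unadjusted p under 0.05). No p-value was computed for the ratios, which are descriptions.

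**Figure D2:**
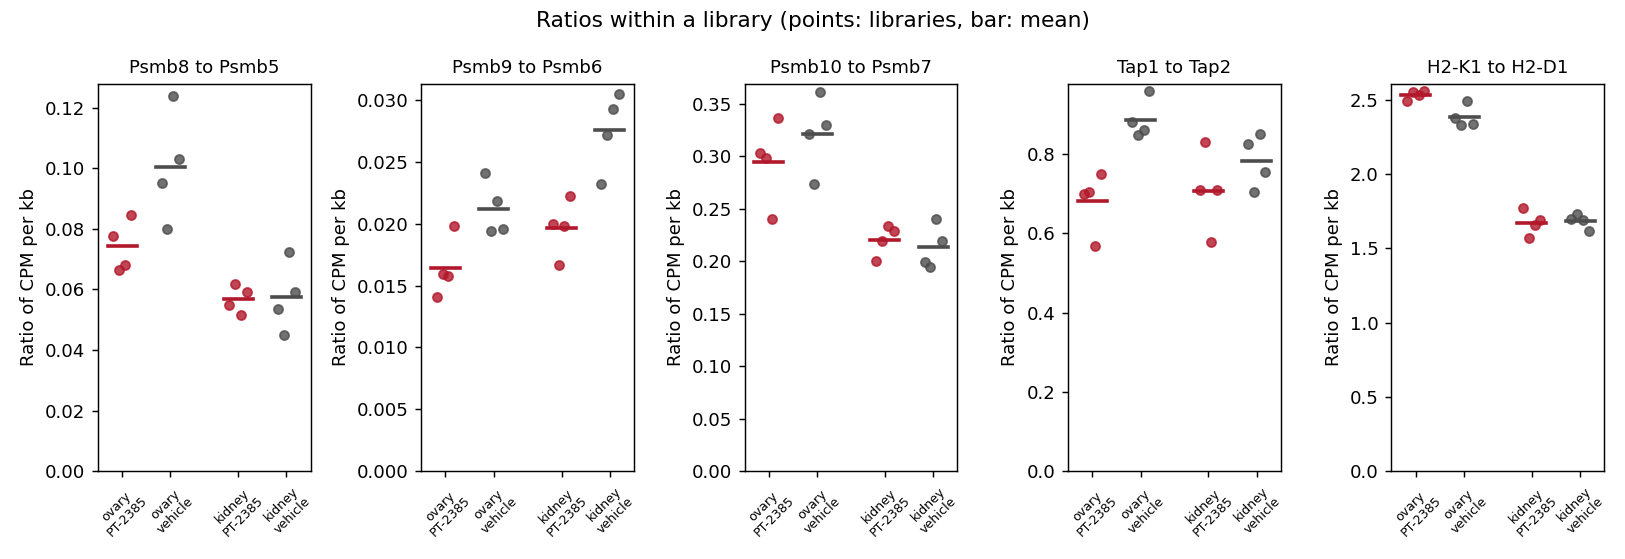
Ratios of CPM per kilobase between paired genes within each library, on linear axes from 0; points are libraries and bars means, with PT-2385 left of vehicle in each organ. Tap1 to Tap2 in ovary (mean 0.680 with PT-2385 against 0.887 with vehicle) and Psmb9 to Psmb6 in kidney (mean 0.0197 with PT-2385 against 0.0275 with vehicle) are the pairs whose groups do not overlap.

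Nlrc5, the transactivator that acts at class I promoters (chromosome 8, 95161019 to 95253900), was the lowest of the 10 in CPM per kilobase. In mean CPM Psmb9 was lower in ovaries with vehicle, and in the other groups Nlrc5 was the lowest by a small margin. It measured 3.37, 3.47, 2.83 and 4.23 CPM in ovaries with PT-2385, from 57, 90, 70 and 135 read pairs, against 5.95, 5.02, 5.75 and 6.17 CPM with vehicle, from 184, 154, 190 and 182 read pairs. The groups were well apart: the highest treated library reached 4.23 CPM and the lowest vehicle library 5.02 CPM. The log2 fold change was -0.71 (SE 0.147, 95% interval -1.03 to -0.39), with an unadjusted p of 0.000346 and an adjusted p of 0.0886. In kidney Nlrc5 measured 3.07, 3.77, 3.92 and 4.19 CPM with PT-2385, against 5.03, 3.50, 5.82 and 4.74 CPM with vehicle. Vehicle replicate 2 lay among the treated libraries there (log2 fold change -0.34, SE 0.153, adjusted p = 0.194).

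**Figure D3:**
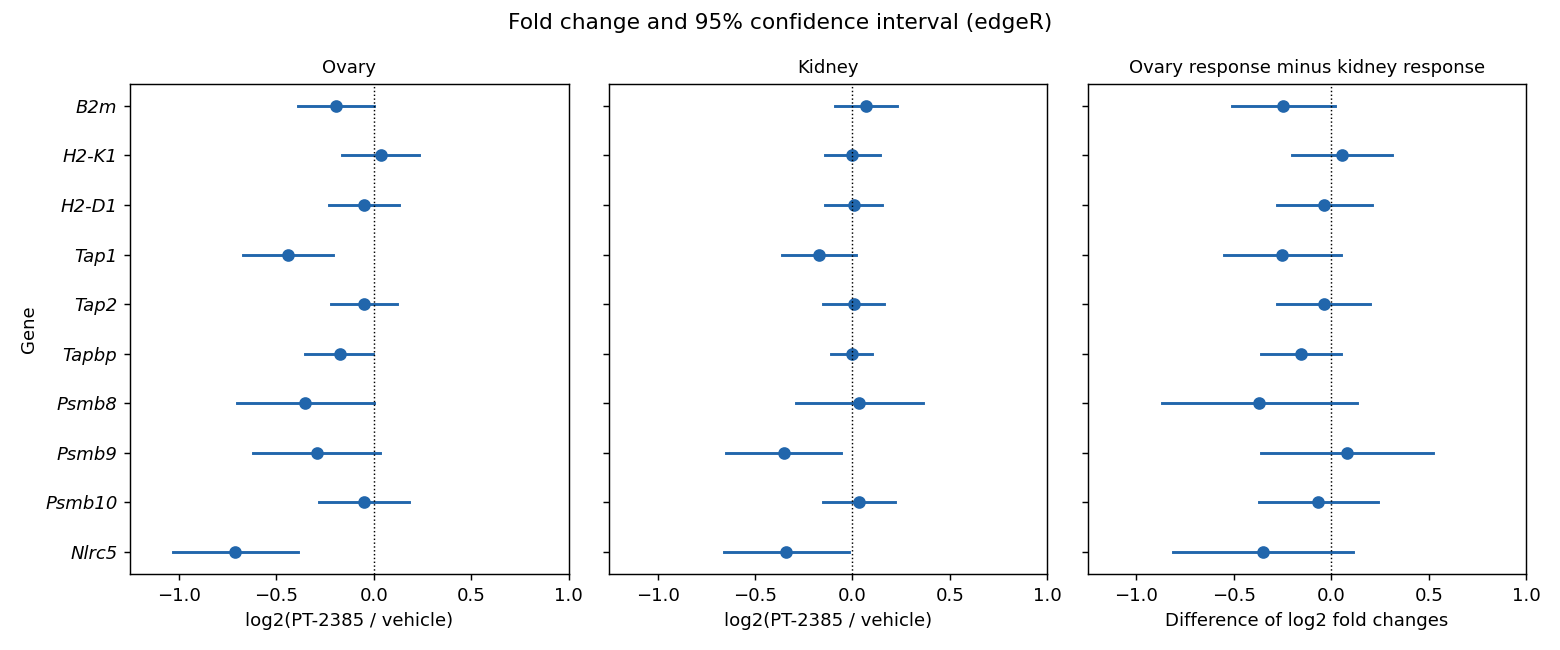
Log2 fold change of PT-2385 over vehicle with its 95% confidence interval for the 10 genes in ovary and kidney, and the ovary response minus the kidney response. Intervals wholly below 0 are those of Nlrc5, Tap1, Tapbp and Psmb8 in ovary and of Psmb9 and Nlrc5 in kidney; in the third panel all 10 cross 0.

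Counted over the 10 genes, 9 had a log2 fold change below 0 in ovary (background 50.8% of all tested genes), with a median of -0.18 against -0.00304 over all genes. An unadjusted p under 0.05 was reached by 4 of them (Nlrc5, Tap1, Tapbp and Psmb8), all lower, against 7.45% of all genes lower at that level. The groups did not overlap for 2 of the 10, both lower, against 3.77% of all genes. In kidney 5 of 10 were below 0 (background 48.5%), the median was 0.0031 against 0.00661 over all genes, 2 reached an unadjusted p under 0.05 (Psmb9 and Nlrc5, both lower; background 12.4% lower), and 0 were without overlap (background 7.89% lower). The counts of the 10 come from a shared set of libraries, and several genes are neighbours on chromosome 17.

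**Figure D4:**
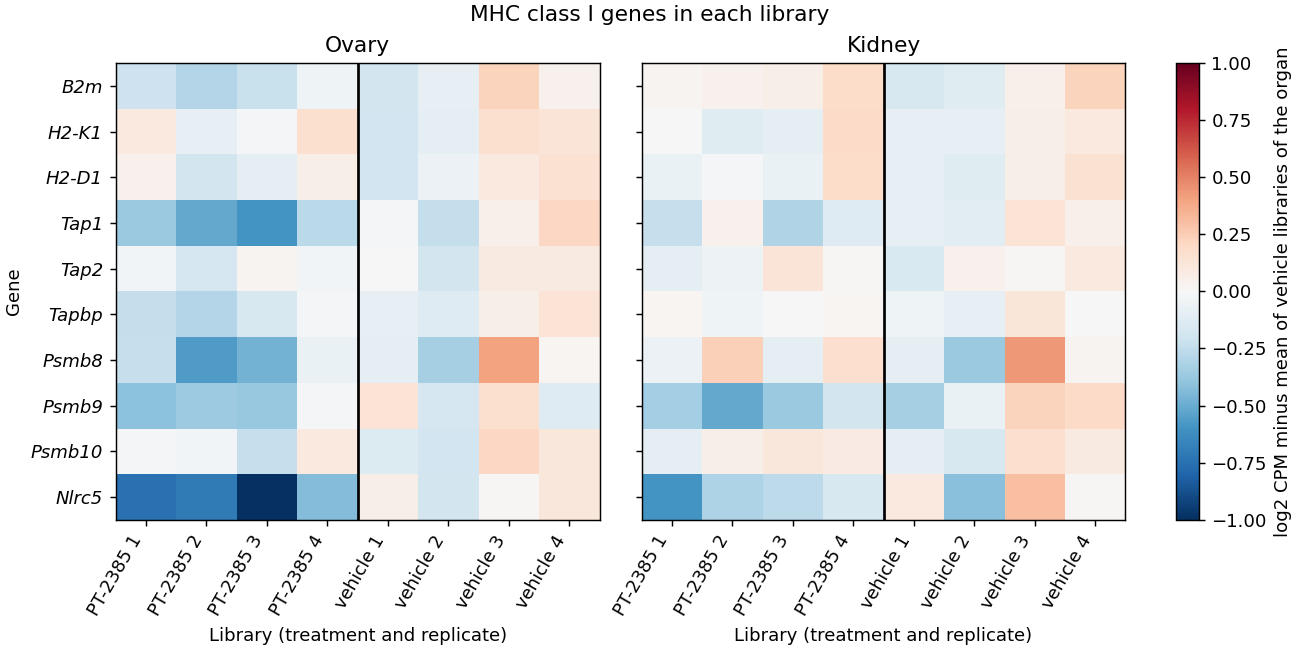
Log2 CPM of each gene in each library minus the mean of the vehicle libraries of that organ, with PT-2385 libraries left of the line and vehicle libraries right of it. Nlrc5, Tap1, B2m, Tapbp, Psmb8 and Psmb9 are below the vehicle mean in all 4 treated ovaries, Nlrc5 and Tap1 also below every vehicle library. H2-K1 and H2-D1 vary to both sides in both organs.

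Ovary and kidney were then compared for their response, by the interaction over all 16 libraries. It was called for 38 of 19977 genes (0.190%) and for 0 of the 10. Of these 10, 8 were more negative in ovary (background 51.1% of all tested genes), with a median difference of -0.11 against -0.00609 over all genes, and 0 reached an unadjusted p under 0.05 (background 12.0%). For Nlrc5 the difference of log2 fold changes was -0.35 (95% interval -0.81 to 0.11, adjusted p = 0.547), for Tap1 -0.25 (-0.55 to 0.05, adjusted p = 0.499) and for B2m -0.25 (-0.51 to 0.02, adjusted p = 0.448). A different response of the 10 genes in ovary and kidney was therefore not detected at this replication.

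The ovary result for Nlrc5 and Tap1 lay near the threshold and moved across it with the fit. With DESeq2 the adjusted p was 0.00244 for Nlrc5 and 0.0216 for Tap1, with limma-voom 0.107 and 0.177. Both also passed without a filter, with all 16 libraries in 1 fit (adjusted p = 0.0252 and 0.0285), and without ovary vehicle replicate 3 (0.0278 and 0.0439). Tap1 alone passed without vehicle replicate 2 (0.0419) and Nlrc5 alone without PT-2385 replicate 4 (0.0498). Without PT-2385 replicate 3 the adjusted p came to 0.397 for Nlrc5 and 0.563 for Tap1. The log2 fold changes stayed between -0.84 and -0.62 for Nlrc5 and between -0.51 and -0.37 for Tap1 with each ovary library left out.

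Other genes of the pathway were read in lists, whose counts stand beside these shares over all tested genes. Below 0 were 50.8% in ovary and 48.5% in kidney. Lower at an unadjusted p under 0.05 were 7.45% in ovary and 12.4% in kidney. At the adjusted threshold 0.0441% fell in ovary and 3.70% in kidney. For genes higher at an unadjusted p under 0.05 no share over all genes is given. In the 12 genes of peptide loading and trimming, 0 passed in ovary (7 below 0, 3 lower and 1 higher at an unadjusted p under 0.05, median -0.03) and 1 fell in kidney (4 below 0, median 0.02). It was Canx, the chaperone calnexin, which averaged 436 ± 19.1 CPM in kidneys with PT-2385 and 500 ± 24.2 CPM with vehicle (SD, n = 4 each; log2 fold change -0.20, adjusted p = 0.0323). Its adjusted p lay between 0.0540 and 0.121 without kidney vehicle replicate 1 or 2 or without PT-2385 replicate 1, 2 or 3, and at 0.0931 with all 16 libraries in 1 fit. In ovary the smallest p-values belonged to Psme1, a subunit of the proteasome activator (log2 fold change -0.20, adjusted p = 0.256), Tapbpl, a tapasin relative (-0.21, 0.321), Psme3, a nuclear proteasome activator (0.20, 0.328), and Ube2l6, the conjugating enzyme for ISG15 (-0.30, 0.350).

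Of the 19 further class I and class I-like heavy chains, 16 were tested in ovary and 17 in kidney. In ovary 0 passed, 12 were below 0 and the median was -0.11. At an unadjusted p under 0.05, 4 were lower there (background 7.45% of all tested genes). In kidney 2 fell (background 3.70%) and 0 rose, 11 were below 0 and the median was -0.06. H2-T22, a nonclassical heavy chain recognised by γδ T cells, averaged 50.5 ± 0.282 CPM in kidneys with PT-2385 and 63.9 ± 3.00 CPM with vehicle (SD, n = 4 each), and the groups did not overlap (log2 fold change -0.34, SE 0.0489, adjusted p = 0.00275). It passed in all 16 alternatives run for it. H2-T10 is a near-identical copy, so the split of reads between them is uncertain. H2-T23, which encodes Qa-1, the ligand of an inhibitory receptor on natural killer cells, averaged 71.2 ± 2.55 CPM with PT-2385 and 83.1 ± 5.81 CPM with vehicle (SD, n = 4 each; log2 fold change -0.22, adjusted p = 0.0273). Its adjusted p lay between 0.0528 and 0.0890 without kidney vehicle replicate 2 or without any single one of the PT-2385 replicates, and at 0.0923 with all 16 libraries in 1 fit. In ovary H2-T22 had a log2 fold change of -0.23 (adjusted p = 0.282).

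Among 14 transcription regulators of class I genes, the median log2 fold change was 0.06 in ovary and 0.01 in kidney. In kidney 0 passed, and 2 were higher at an unadjusted p under 0.05. Irf9 and Stat2, parts of the complex that acts downstream of the type I interferon receptor, had log2 fold changes of -0.59 (adjusted p = 0.0678) and -0.45 (0.0842) in ovary, where the PT-2385 and vehicle libraries did not overlap for either gene. Each of the 2 passed in ovary in 7 of 17 alternatives.

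Genes that interferons induce lay mostly below 0 in both organs. Of 15 type I interferon-inducible genes, all tested, 15 were below 0 in ovary (median -1.02) and 15 in kidney (median -0.50). In ovary 0 passed, and 14 were lower at an unadjusted p under 0.05 (background 7.45% of all tested genes). In kidney 1 fell (background 3.70%), and 9 were lower at an unadjusted p under 0.05 (background 12.4%). In ovary the antiviral gene Ifit3 averaged 1.82 ± 0.620 CPM with PT-2385 and 5.89 ± 1.65 CPM with vehicle (SD, n = 4 each; log2 fold change -1.67, adjusted p = 0.0505), and it passed in 8 of 17 alternatives. Rsad2 (-1.50), Usp18 (-1.46) and Oasl2 (-0.86) had adjusted p-values between 0.0554 and 0.0634, and passed in 6, 7 and 6 of 17 alternatives. The gene that fell in kidney was Ifit1 (log2 fold change -0.59, adjusted p = 0.0493), and with any kidney library but vehicle replicate 2 left out its adjusted p lay between 0.0749 and 0.135. It was 0.0507 with upper-quartile scaling, 0.0979 with limma-voom and 0.318 with all 16 libraries in 1 fit. The kidney median of this list came to -0.27 without vehicle replicate 4. Of the genes typical of interferon gamma, 13 of 14 tested were below 0 in ovary (median -0.63) and 14 of 15 in kidney (median -0.37).

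In that second list 0 passed in ovary, where 10 were lower at an unadjusted p under 0.05 (background 7.45%). In kidney 9 were lower at that level (background 12.4%). At the adjusted threshold 4 fell in kidney (background 3.70%), all GTPases of cell-autonomous defence. Irgm2 averaged 17.2 ± 0.884 CPM in kidneys with PT-2385 and 24.1 ± 2.39 CPM with vehicle (SD, n = 4 each; log2 fold change -0.49, adjusted p = 0.00406). Gbp3 had a log2 fold change of -0.61 (adjusted p = 0.0117), Gbp4 of -0.44 (0.0290) and Gbp7 of -0.40 (0.0305). All 4 calls were lost in the fit of all 16 libraries (0.0509 for Irgm2, 0.0844 for Gbp3, 0.122 for Gbp4 and 0.115 for Gbp7), and those of Irgm2 and Gbp3 in no other alternative run. Gbp4 also missed the threshold without PT-2385 replicate 1, 3 or 4 (0.0532 to 0.0835), and Gbp7 without vehicle replicate 2 or PT-2385 replicate 1, 3 or 4 (0.0658 to 0.121). In ovary the same 4 genes had log2 fold changes of -0.74 (Irgm2), -0.91 (Gbp3), -0.88 (Gbp4) and -0.71 (Gbp7), with adjusted p-values between 0.0737 and 0.111. Of these, Irgm2 and Gbp7 passed in ovary in 7 of 17 alternatives each and Gbp4 in 5. DESeq2 was among them (adjusted p = 0.000611 for Irgm2, 0.000907 for Gbp7 and 0.000414 for Gbp4). These genes belong to families of related genes, which may split reads. On the same strand, Irgm2 shared 4.39% of its exon bases with Igtp, Gbp7 11.3% with Gm43802, and Gbp4 1.34% with Gbp8 and Gbp9. The interferon genes were too low to be fitted: Ifng had 0 counts in all ovaries, and in kidney 1 count with PT-2385 and 0 with vehicle. Ifnl3 had 5 counts in ovaries with PT-2385 and 16 with vehicle (exact two-sided permutation p = 0.0286, the smallest the design allows, and 0.267 adjusted over the 28 low genes tested so).

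**Figure D5:**
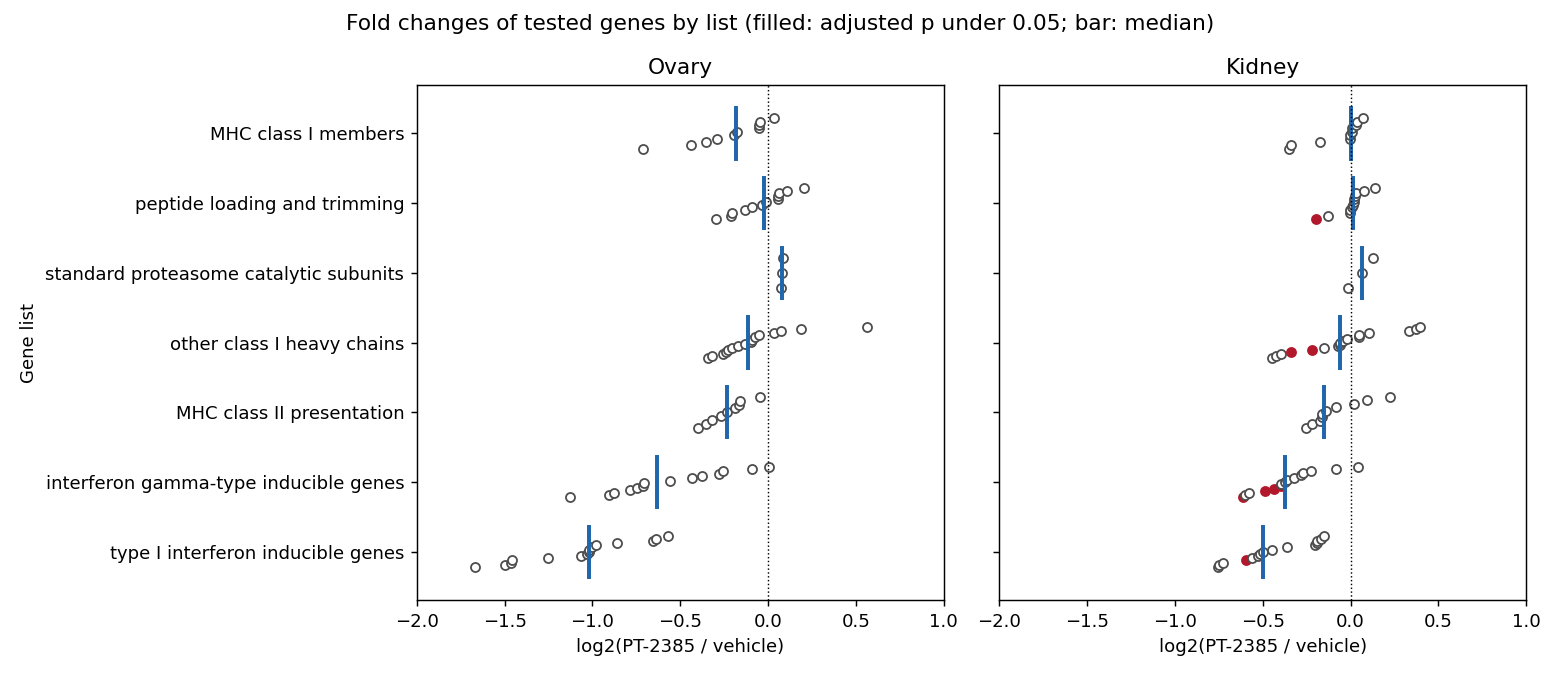
Log2 fold changes in ovary and kidney of the tested genes of the class I members and the lists named on the axis. Those lists are peptide loading and trimming, standard proteasome subunits, other class I heavy chains, MHC class II and both interferon-inducible lists. The transcription regulators, marker lists and nuclear noncoding RNAs are not drawn. Each point is a gene, filled where its adjusted p was under 0.05, and the bar is the list's median. The class I genes have medians of -0.18 in ovary and 0.0031 in kidney, against -1.02 and -0.50 for type I interferon-inducible genes.

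MHC class II genes present peptides from outside the cell on specialised cells. Of them 9 of 9 tested were below 0 in ovary (median -0.23) and 7 of 10 in kidney (median -0.15), and 0 passed in either organ. At an unadjusted p under 0.05, 1 was lower in ovary (background 7.45%) and 4 in kidney (background 12.4%). Ctss, the protease cathepsin S, had a log2 fold change of -0.40 in ovary (adjusted p = 0.207), and Cd74, the invariant chain, of -0.17 in kidney (0.0615). Markers of leukocytes were read beside these. Ptprc, the pan-leukocyte marker, lay between 5.09 and 5.86 CPM in ovaries with PT-2385, against 6.02 to 7.04 CPM with vehicle (log2 fold change -0.23, adjusted p = 0.393). The summed 10 macrophage markers ran from 115 to 144 CPM in ovaries with PT-2385 against 127 to 168 CPM with vehicle, and from 111 to 126 CPM in kidneys with PT-2385 against 131 to 142 CPM with vehicle. In ovary 0 of these 10 passed, with 2 lower at an unadjusted p under 0.05 (background 7.45%). In kidney 1 fell (background 3.70%), Csf1r, the macrophage growth factor receptor (log2 fold change -0.27, adjusted p = 0.0251). Its adjusted p lay between 0.0538 and 0.0931 without vehicle replicate 2 or PT-2385 replicate 2 or 4, and was 0.136 with all 16 libraries in 1 fit.

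Summed markers of the other cell types were as follows. The 8 endothelial markers came to between 571 and 623 CPM in ovaries with PT-2385 against 600 to 759 CPM with vehicle, and to between 506 and 551 CPM in kidneys with PT-2385 against 472 to 513 CPM with vehicle. Dendritic cell markers came to between 30.0 and 33.9 CPM in ovaries with PT-2385, against 32.5 to 39.8 CPM with vehicle. Most of this sum was 1 gene, Zbtb46, with means of 25.5 CPM with PT-2385 and 29.3 CPM with vehicle. Of the 5 dendritic markers tested in ovary, 3 were below 0 and 2 above. T and NK cell markers were sparse, at 9.41 to 12.0 CPM in ovaries with PT-2385 against 8.73 to 10.7 CPM with vehicle, and their members differed in direction. Of the 14 markers 4 could be tested in ovary and 0 passed (1, Gzmb, higher at an unadjusted p under 0.05). Gzmb, a protease of cytotoxic granules and the largest part of the sum, averaged 6.64 ± 0.983 CPM with PT-2385 and 4.93 ± 0.193 CPM with vehicle (SD, n = 4 each; log2 fold change 0.42, adjusted p = 0.217), without overlap. Cd4, the helper T cell coreceptor, averaged 1.10 ± 0.0648 CPM with PT-2385 and 1.46 ± 0.132 CPM with vehicle (SD, n = 4 each; log2 fold change -0.40, adjusted p = 0.388), also without overlap. Of the 10 too low to be fitted, Cd3d had 1 count over the ovaries with PT-2385 and 12 with vehicle, and Gzma 21 with PT-2385 and 54 with vehicle (exact two-sided permutation p = 0.0286 for each, 0.267 adjusted). Nkg7 had 5 counts with PT-2385 and 24 with vehicle, and Ncr1 6 with PT-2385 and 17 with vehicle (exact permutation p = 0.0571 for each, 0.320 adjusted). The rest, PT-2385 first, were Cd3e (31 and 27), Cd3g (25 and 26), Cd8a (7 and 9), Cd8b1 (3 and 6), Trbc1 (11 and 14) and Prf1 (14 and 23). Their exact permutation p ran from 0.343 to 0.886. Counts here are not scaled for depth, which was 17.2 to 32 M read pairs in PT-2385 ovaries and 29.5 to 33.6 M in vehicle ovaries. B cell markers stood at 2.62 to 3.19 CPM in ovaries with PT-2385 against 2.88 to 4.24 CPM with vehicle, and neutrophil markers at 4.40 to 6.38 CPM with PT-2385 against 3.27 to 5.53 CPM with vehicle. In kidney dendritic cell markers came to 25.3 to 27.2 CPM with PT-2385 against 24 to 25.6 CPM with vehicle. Zbtb46 again made up most of this sum, with means of 21.3 CPM with PT-2385 and 19.9 CPM with vehicle. T and NK cell markers came to 3.61 to 5.09 CPM in kidneys with PT-2385 against 3.54 to 5.03 CPM with vehicle. B cell markers stood at 2.04 to 4.15 CPM in kidneys with PT-2385 against 2.36 to 3.46 CPM with vehicle, and neutrophil markers at 2.36 to 3.74 CPM with PT-2385 against 2.67 to 3.28 CPM with vehicle. Their part in the class I values was not tested.

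The genes whose pattern over the 8 libraries of an organ was most like that of the 10 genes (mean of centred log2 CPM) differed between ovary and kidney. In ovary they were Lgals9 (r = 0.980), a galectin; Zbp1 (0.972), a nucleic acid sensor; Rbfa (0.963); Lgals3bp (0.951), a secreted galectin-binding protein; and Ube2l6 (0.949). In kidney they were Gm9531 (0.954), Hoxc10 (0.950), Gm47021 (0.949), Cd82 (0.936) and Syt13 (0.933). These correlations describe 8 libraries that differ in depth and hold both treatments, and carry no test. Zbp1 averaged 2.71 ± 0.957 CPM in ovaries with PT-2385 and 4.83 ± 1.57 CPM with vehicle, and Lgals3bp 68.9 ± 23.9 CPM with PT-2385 and 125 ± 25.2 CPM with vehicle (SD, n = 4 each), with overlap in both.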

How the data were processed

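RNA of whole ovary and kidney was sequenced as stranded polyA libraries, per the labels' protocols. The deposited values are counts of read pairs per gene, made by the authors with featureCounts 2.0.6 on GENCODE vM27 basic exons, per the file headers; STAR and GRCm39 are named in the submitters' processing notes, with the STAR version not given in the sources used here. The command recorded in the file headers has no strand option, so reads of overlapping genes on opposite strands were not separated. Symbols came from GENCODE M21 by identifier (52083 of 55359, 94.1%).

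From these counts each organ was tested alone with edgeR 4.0.16 (R 4.3.3; quasi-likelihood, robust) after TMM scaling and filterByExpr (count 10, total 15), with Benjamini-Hochberg adjustment over all tested genes; the interaction used all 16 libraries. Fold changes are PT-2385 over vehicle. No 2 libraries of a group were duplicates, and the tests were tested on simulated data. Intervals are 95%. Low genes were compared by exact permutation over 70 groupings.

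The members and lists were chosen with earlier results of these data known, and the κB letters were shortened by 1 base after their matches had been seen. Named were the 10 members, up to 4 genes per list and organ with the smallest p (called genes included; for marker lists their sums are given in place of most names), and the 5 genes per organ most like the members' mean. A gene that this rule names is not reported here. Results were recomputed with scaling by median ratios or upper quartiles, with DESeq2 1.42.0, with voom of limma 3.58.1, unfiltered, with genes kept at 1 CPM in 4 libraries, with a replicate block, with all 16 libraries in 1 fit, with summed heavy chains and with each library left out. Figures used Python 3.11.15 and matplotlib 3.10.9.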

Additional observations from a re-analysis of the deposited data

Results flagged for a closer look

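Psmb9 in ovary PT-2385 replicate 4, at 4.20 CPM, stood apart from the other 3 libraries of its group, of which the nearest was at 3.32 CPM and the farthest at 3.19 CPM (gap over range 0.874, by Dixon's test). Of 40 groups of 4 looked at (10 genes in 4 groups), chance alone flags about 1 in 20.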

How the results depend on the processing

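Over the alternatives, 2306 of 2622 recomputed values kept their direction and their side of the threshold or moved little. In ovary the count of called genes (9) was 324 with DESeq2, 3 with limma-voom, 330 without a filter, 325 with all 16 libraries in 1 fit and between 0 and 1090 with each library left out, the last without vehicle replicate 3. Leaving out vehicle replicate 2 gave 57, and leaving out PT-2385 replicate 4 gave 60. Of the 10 class I genes, 2 were called (Nlrc5 and Tap1) with DESeq2, without a filter and with all 16 libraries, and between 0 and 2 with a library left out; between 8 and 10 were below 0. In kidney the count (982) was 1761 without a filter, 286 with all 16 libraries and between 240 and 1370 with a library left out, with 0 class I genes called and between 3 and 8 below 0. The interaction count (38) was 20 with median-ratio scaling, 301 with DESeq2, 167 without a filter, 378 without both libraries with deviating file names and between 0 and 813 with a library left out, with 0 class I genes called. The cause of these shifts was not tested.

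Replicate numbers did not pair the samples: correlations of same-numbered deviations ran from -0.172 to 0.236 between ovary groups and from -0.0640 to 0.0522 between kidney groups. Between organs they ran from -0.0427 to 0.0905, and the own number was the best match in 6 of 8 cases, a hint from the data and not from the design. Within an organ the replicate block joined PT-2385 and vehicle libraries of the same number, for which the labels give no basis. It gave 395 called genes in ovary with 2 class I genes (adjusted p = 0.0241 for Nlrc5 and 0.0246 for Tap1). For the interaction the block joined ovary and kidney of the same treatment and number, and 20 genes were called.

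Small fold changes crossed 0. With heavy chains summed, H2-K1 in ovary came to -0.04, H2-D1 in kidney to -0.09 and H2-D1 in the interaction to 0.07, by construction. In kidney H2-K1 was 0.0014 with upper-quartile scaling and 0.0006 with the stricter filter, Tapbp 0.0011 with limma-voom, and with all 16 libraries H2-D1 was -0.0089 and Tap2 -0.0097. Without both deviating libraries the interaction was 0.06 for Tap2 and 0.05 for Psmb10. With a library left out, ranges in ovary were -0.03 to 0.09 (H2-K1), -0.11 to 0.0027 (H2-D1) and -0.11 to 0.03 (Psmb10). In kidney they were -0.07 to 0.03 (H2-K1), -0.06 to 0.06 (H2-D1), -0.04 to 0.04 (Tap2), -0.03 to 0.04 (Tapbp), -0.08 to 0.19 (Psmb8), -0.02 to 0.09 (Psmb10) and -0.07 to 0.005 (Hoxc10). In the interaction they were -0.0061 to 0.13 (H2-K1), -0.10 to 0.03 (H2-D1), -0.10 to 0.02 (Tap2), -0.03 to 0.18 (Psmb9) and -0.13 to 0.02 (Psmb10).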
